A study of Homo sapiens with 6 samples.

Results

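Genes of cholesterol efflux and its control by the liver X receptors (LXRs) were followed in THP-1 cells with and without interleukin-6 (IL-6). The genes were ABCA1, ABCG1, NR1H2, NR1H3, MYLIP, LPCAT3, APOE, APOC1, PLIN2 and CD36, chosen by name with the condition that a value was listed in at least 4 of the 6 libraries. All 10 met it, of 20823 genes that did among the 60325 genes in the tables. THP-1 is an established human monocytic leukaemia cell line. The libraries were IL-6-treated cells at 6, 24 and 48 h and control cells at 6, 24 and 48 h, with 1 library for each condition. The agent was recombinant human IL-6, whose dose is not in the labels, and the cells carried no named allele or transgene. The study asked which transcripts IL-6 shifts in these cells. The labels do not tell whether the libraries were grown as separate cultures, and a p-value here speaks to the spread among these libraries alone.

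LXRs are nuclear receptors that bind oxysterols, oxidised forms of cholesterol, and pair with retinoid X receptors on DNA. When a macrophage is loaded with cholesterol they switch on the membrane pumps ABCA1 and ABCG1, which pass cholesterol to apolipoprotein A-I and to high-density lipoprotein, together with apolipoproteins such as APOE that carry it away. They also induce the ubiquitin ligase MYLIP (IDOL), which limits lipoprotein uptake, and LPCAT3, which puts polyunsaturated fatty acids into membrane phospholipids. CD36 takes up oxidised LDL and fatty acids, and PLIN2 coats the lipid droplets in which cholesterol esters and triglycerides are stored.

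The deposited value of a gene is a log2 value centred on the mean of its 6 libraries, so that 0 is the gene's own average and a difference of 1 is 2-fold. A level in an arbitrary unit, taken to be per transcript length, could also be recovered from the steps between values for 9 of the 10 genes, and not for PLIN2. Matches made by accident occurred in simulated decoys at mean levels of 31.7 and above, which takes in NR1H2, LPCAT3, APOE, APOC1 and CD36. The read depth is unknown. A value was listed for 22209 to 22733 genes in the IL-6 libraries and for 22000 to 23108 genes in the control libraries. Values were listed in 6 libraries for 10 of 10 monocytic marker genes, and the T-cell genes CD3E and CD2 and the B-cell gene MS4A1 had no value in any library. The NK-cell gene NKG7 was listed in all 6 libraries, and no other of the 7 T and NK cell markers was. The largest IL-6 estimates among monocytic markers were CD14 at 2.07 ± 0.85, AZU1 at -0.32 ± 0.11 and MPO at -0.29 ± 0.30 in log2 (limma SE), and none of the 10 passed (lowest limma adjusted p = 0.415). NKG7 was at 0.65 ± 0.15, the B-cell gene CD79B at -0.27 ± 0.32 and the epithelial gene KRT8 at -0.63 ± 0.43, again short of the threshold. Known STAT3 target genes were higher with IL-6: the kinase gene PIM1 rose by 2.67 ± 0.18 on the log2 scale and the NF-κB regulator gene BCL3 by 2.48 ± 0.15 (limma SE, 3 pairs), with limma adjusted p = 0.00024 and 0.000147. STAT3 rose by 0.78 ± 0.12 (limma adjusted p = 0.0276), and the estimate for its inhibitor SOCS3 was 2.54 ± 0.48, short of the threshold (limma adjusted p = 0.113).

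Promoters of ABCA1, NR1H3 and LPCAT3 are printed. The first had the LXR-type motif searched for, the second is the gene of LXRα itself and the third is the gene that passed a test. For NR1H3 only a window with a motif match is printed, and any window without a match was left out. Each is the 250 bases before a RefSeq start on GRCh38.p14, given 5′ to 3′ on the gene's own strand, and capitals mark a motif match. They are ABCA1 at chr9:104928156-104928405 (minus strand), NR1H3 at chr11:47248050-47248299 (plus strand) and LPCAT3 at chr12:7018477-7018726 (minus strand).
ABCA1: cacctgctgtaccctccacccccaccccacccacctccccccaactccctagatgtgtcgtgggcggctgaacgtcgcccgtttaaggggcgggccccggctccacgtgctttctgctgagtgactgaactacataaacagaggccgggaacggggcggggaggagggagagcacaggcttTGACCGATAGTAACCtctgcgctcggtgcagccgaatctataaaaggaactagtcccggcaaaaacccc
NR1H3: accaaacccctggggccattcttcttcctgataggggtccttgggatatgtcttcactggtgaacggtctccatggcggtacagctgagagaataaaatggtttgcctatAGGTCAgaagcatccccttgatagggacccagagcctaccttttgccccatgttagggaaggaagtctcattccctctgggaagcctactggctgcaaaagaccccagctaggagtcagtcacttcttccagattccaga
LPCAT3: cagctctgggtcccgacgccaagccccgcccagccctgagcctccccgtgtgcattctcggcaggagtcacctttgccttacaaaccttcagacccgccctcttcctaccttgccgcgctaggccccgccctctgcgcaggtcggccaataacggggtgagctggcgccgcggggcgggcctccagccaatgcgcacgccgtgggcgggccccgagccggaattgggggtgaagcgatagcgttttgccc

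RefSeq promoters were matched for 9 of the 10 genes, with 19 windows among them, and were searched on both strands. ABCG1 had no promoter window and was not searched. The LXR-type motif GGTNANNNNNGGTNA, a looser form of the direct repeat that LXR and its partner bind, was found in 0.533% of all 35114 windows and, among these genes, in ABCA1. There it reads TGACCGATAGTAACC on the gene's strand, at chr9:104928210-104928224, from 69 to 55 bases before the start. The nuclear receptor motif AGGTCA, which does not overlap that match, was found in 12.1% of windows and in NR1H3 among these genes, at chr11:47248160-47248165. The STAT-type motif TTCNNNGAA was in 6.57% of windows and in CD36 among these genes, as TTCTGAGAA at chr7:80646041-80646049. LPCAT3 had no match to the 3 motifs in its window.

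The receptors differed in how steady they were. NR1H2 (ENSG00000131408.15, chromosome 19 from 50329653 to 50383388, plus strand, GRCh38) encodes LXRβ, the widely expressed form. Its level was 49.7, 46.4 and 64.8 at 6, 24 and 48 h with IL-6, against 52.9, 60.2 and 63.8 in the controls, and the groups overlapped. NR1H3 (ENSG00000025434.19, chromosome 11 from 47248300 to 47269033, plus strand) encodes LXRα, the form prominent in macrophages and liver. With IL-6 the level at these times was 5.03, 19.1 and 13.1, against 9.54, 9.94 and 11.6 in the controls. The control libraries of NR1H3 lay close together, while the IL-6 libraries held both its lowest value, at 6 h, and its highest, at 24 h. The IL-6 minus control differences in log2 value were -0.92, 0.94 and 0.17 in order of time, so that the estimate over the 3 pairs was 0.06 ± 0.32 (limma SE; 95% interval -0.69 to 0.81; limma adjusted p = 0.975). For NR1H2 it was -0.15 ± 0.12 (95% interval -0.42 to 0.13; limma adjusted p = 0.793). In the GENCODE 29 annotation NR1H3 shares 189 of its 4533 exon bases, 4.17%, with ACP2 on the opposite strand. The library preparation does not mark strand, so reads there cannot be assigned to either gene. The gene length listed with the deposited values is 2731 for NR1H3, so the share of its measured bases that overlaps is unknown.

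Of the cholesterol pumps, ABCA1 had higher values at later times in both cultures, whereas ABCG1 had a different course in each. ABCA1 (ENSG00000165029.17, chromosome 9 from 104781006 to 104928155, minus strand) stood at levels of 1.79, 2.51 and 4.45 at 6, 24 and 48 h with IL-6, against 2.18, 3.72 and 4.09 in the controls. The lowest library in either culture was that of 6 h and the highest that of 48 h, and the IL-6 and control values overlapped. At 48 h its value was 2.49-fold that of 6 h with IL-6 and 1.88-fold in the controls. The 48 h minus 6 h estimate over both cultures was 1.11 ± 0.38 in log2 (limma SE, 2 libraries per time; 95% interval 0.28 to 1.95), which missed the threshold (limma adjusted p = 0.125). Its IL-6 estimate was -0.24 ± 0.31 (95% interval -0.93 to 0.44; limma adjusted p = 0.88).

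ABCG1 (ENSG00000160179.19, chromosome 21 from 42199689 to 42297244, plus strand) had the widest spread of the 10 genes. Its level was 0.323, 0.586 and 4.69 at 6, 24 and 48 h with IL-6, against 1.11, 3.08 and 1.45 in the controls. With IL-6 the 6 and 24 h libraries were below every control and the 48 h library above every control. At 6 h the IL-6 library was 0.291-fold the control and at 24 h 0.19-fold, while at 48 h it was 3.23-fold the control. These ratios correspond to log2 differences of -1.78, -2.39 and 1.69, with an SD of 2.2, and the estimate over the 3 pairs was -0.83 ± 0.79 (limma SE; 95% interval -2.72 to 1.07; limma adjusted p = 0.833). Whether the 48 h ratio differs from the earlier ones was not tested. Within the IL-6 cultures the 48 h value was 14.5-fold that of 6 h and 8.01-fold that of 24 h. In the controls the 24 h value was 2.78-fold that of 6 h and the 48 h value 0.472-fold that of 24 h.

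The width of these swings has to be read against the low level of ABCG1, whose mean over the 6 libraries was 1.87. Among genes with a mean level from 1 up to 5 in the libraries compared, a difference of 2-fold or more between IL-6 and control was found in 19.3% at 24 h and 18.9% at 48 h. The mean level of the 6 h pair of ABCG1 was below 1, and 16.8% of genes from 1 up to 5 were 2-fold apart at that time. In the same class of level, 25.9% of genes differed by 2-fold or more between the IL-6 libraries of 48 and 6 h, as ABCG1 and ABCA1 did, and 23.6% between those of 48 and 24 h. In the controls it was 22.1% between 24 and 6 h and 18.1% between 48 and 24 h. Over the 6 libraries the distance between its highest and lowest log2 value was 3.86, larger than that of 98.1% of the 3986 tested genes at these levels, whose median was 1.34. ABCA1, with a mean level of 3.13, had a distance of 1.32, larger than that of 48.6% of them. With 1 library per condition, a change of the condition and a stray library cannot be told apart.

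**Figure D1:**
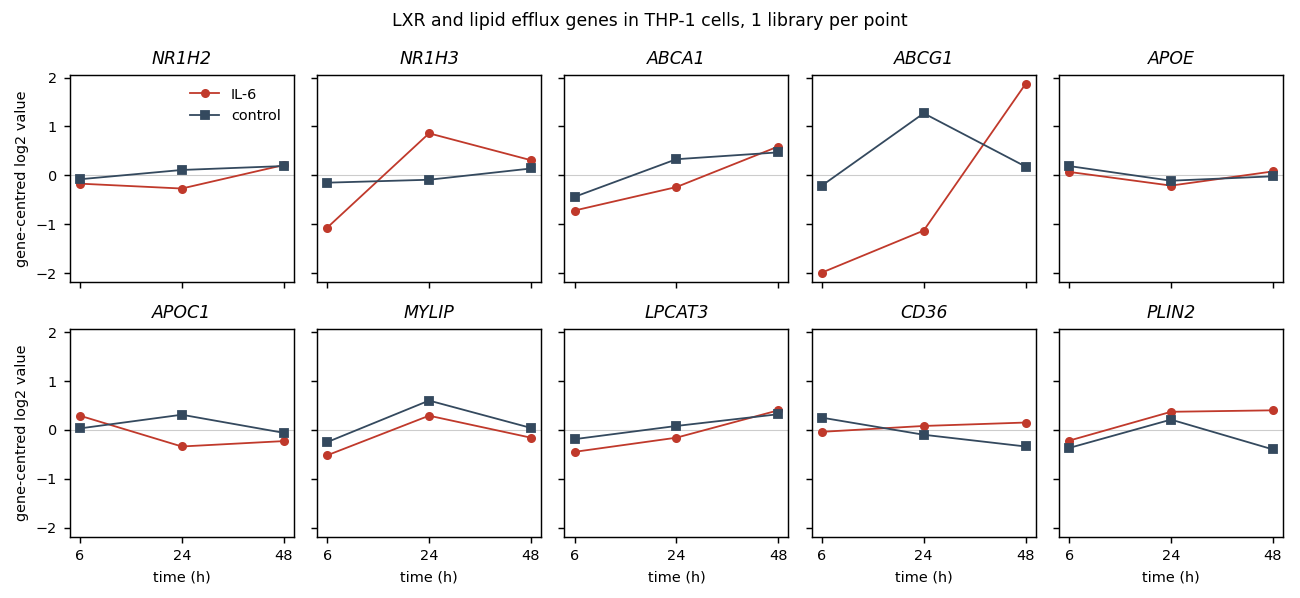
Gene-centred log2 value (vertical axis, the same in every panel) against time in hours for the 10 genes, with IL-6 libraries as circles and control libraries as squares, 1 library per point. ABCG1 crosses from -1.99 at 6 h to 1.87 at 48 h with IL-6, NR1H3 has its highest value, 0.86, with IL-6 at 24 h, and APOE and NR1H2 stay within 0.40 and 0.48 of their lowest library.

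**Figure D2:**
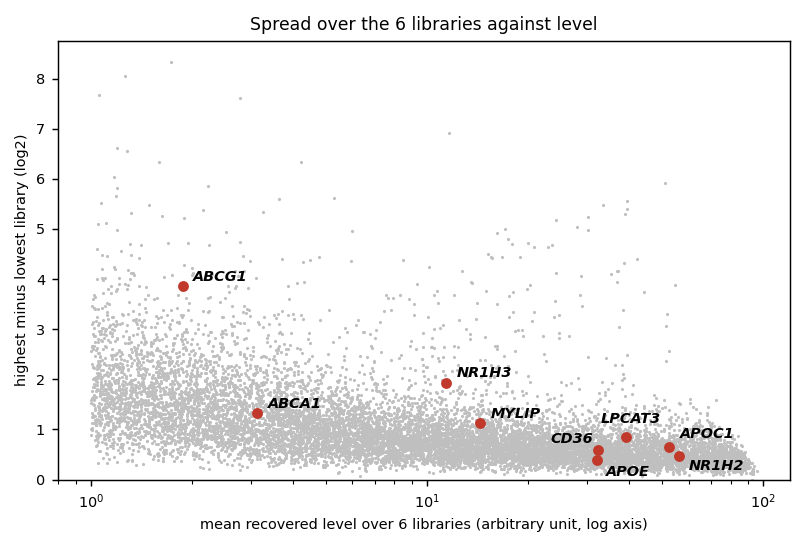
Distance between the highest and the lowest of the 6 libraries (log2) against the mean recovered level (arbitrary unit, log axis) for the genes tested that have a recovered level, in grey, and for 9 of the 10 genes, in red. ABCG1 at 3.86 lies above most genes of its level, and ABCA1 at 1.32 lies in the middle of them.

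The apolipoprotein genes next to each other on chromosome 19 were among the steadier members. APOE (ENSG00000130203.10, from 44905791 to 44909393, plus strand), whose product carries lipid to the receptors that clear it, had levels of 33.4, 27.6 and 33.7 at 6, 24 and 48 h with IL-6, against 36.3, 29.5 and 31.5 in the controls. The groups overlapped, and both cultures were lowest at 24 h. Its IL-6 estimate was -0.04 ± 0.13 in log2 (limma SE; 95% interval -0.33 to 0.25; limma adjusted p = 0.958). APOC1 (ENSG00000130208.10, from 44914247 to 44919349, plus strand), which modulates lipoprotein enzymes and receptors, had levels of 63.3, 41.1 and 44.2 with IL-6, against 52.9, 64.5 and 49.6 in the controls. Its IL-6 library was the higher of the pair at 6 h and the lower at 24 and 48 h, and the estimate was -0.18 ± 0.16 (95% interval -0.55 to 0.18; limma adjusted p = 0.81).

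A neighbouring gene overlaps APOC1. In the GENCODE 29 annotation, 532 of the 1231 exon bases of APOC1, 43.2%, also belong to ENSG00000280087. It is a transcript on the same strand with no symbol that lies from 44909375 to 44914968. The gene length listed with the deposited values is 689 for APOC1, so the share of its measured bases that overlaps is unknown. Levels of ENSG00000280087 were 69.7, 5.13 and 4.17 at 6, 24 and 48 h with IL-6, against 7.12, 48.3 and 38.3 in the controls. It was therefore high in the same culture and time as APOC1 at 6 h with IL-6 and at 24 h in the control. The 48 h and 6 h controls went the other way. At 48 h it was at 38.3 and APOC1 at 49.6, while at 6 h ENSG00000280087 was at 7.12 and APOC1 at 52.9. The part of ENSG00000280087 in the APOC1 values was not tested. APOE, with a listed gene length of 1166, shares 19 of its 2191 annotated exon bases, 0.867%, with the same transcript.

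Of the enzymes that LXRs induce, LPCAT3 was the 1 gene of the 10 to pass a test, in the comparison of 48 h with 6 h. LPCAT3 (ENSG00000111684.11, chromosome 12 from 6976185 to 7018477, minus strand) had levels of 28.0, 34.2 and 50.6 at 6, 24 and 48 h with IL-6, against 33.6, 40.3 and 47.7 in the controls. Both 48 h libraries were above every library of 6 or 24 h. It rose at 48 h against 6 h by 0.68 ± 0.16 in log2 (limma SE, 2 libraries per time; 95% interval 0.33 to 1.03; limma adjusted p = 0.0452), or 1.81-fold with IL-6 and 1.42-fold in the controls. The call is close to the threshold: the limma adjusted p was 0.0607 with equal library medians, 0.0737 with non-robust shrinkage, 0.0755 without the filter on level and 0.245 without the variance trend. Its IL-6 estimate was -0.14 ± 0.13 (95% interval -0.43 to 0.15; limma adjusted p = 0.821).

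LPCAT3 also overlaps another gene. In the GENCODE 29 annotation 3100 of its 4725 exon bases, 65.6%, lie in exons of EMG1, a ribosome biogenesis gene on the opposite strand with a mean level of 51.4. The gene length listed with the deposited values is 2902 for LPCAT3, so the share of its measured bases that overlaps is unknown. EMG1 had log2 values of 0.34, 0.14 and -0.36 at 6, 24 and 48 h with IL-6, against 0.17, -0.34 and 0.06 in the controls. Its 48 h minus 6 h estimate was -0.40 ± 0.20 (limma SE; limma adjusted p = 0.282), opposite in sign to that of LPCAT3. Summed levels of markers of other cell types are given without a test. For 4 of 5 B cell markers the sum was 8.15 with IL-6 and 7.42 in the control at 48 h, against 5.36 with IL-6 and 5.10 in the control at 6 h. The fifth, MS4A1, had no value. For 2 of 8 epithelial and fibroblast markers the sum was 2.64 with IL-6 and 2.27 in the control at 48 h, against 1.25 with IL-6 and 1.91 in the control at 6 h. Of the genes in these 2 lists that could be tested, 2 B cell markers and KRT8, none passed at 48 h against 6 h (lowest limma adjusted p = 0.115 and 0.534). NKG7 rose at 48 h against 6 h by 1.01 ± 0.18, while the monocytic genes LYZ and TYROBP fell by 1.78 ± 0.14 and 0.69 ± 0.13 (limma adjusted p = 0.0171, 0.000516 and 0.0193). The monocytic markers did not fall as a list: 5 of the 10 had a positive estimate and 5 a negative one, with a median of 0.16. The part of EMG1 and of these markers in the LPCAT3 result was not tested. In RNA from whole cultures, fewer cells of a type and less RNA per cell cannot be told apart.

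MYLIP (ENSG00000007944.15, chromosome 6 from 16129086 to 16148248, plus strand) had levels of 9.71, 17.1 and 12.5 at 6, 24 and 48 h with IL-6, against 11.7, 21.1 and 14.3 in the controls. In both cultures the 24 h library was the highest, 1.76-fold that of 6 h with IL-6 and 1.8-fold in the controls. Its 24 h minus 6 h estimate was 0.83 ± 0.20 in log2 (limma SE; 95% interval 0.40 to 1.27; limma adjusted p = 0.0659), short of the threshold over all genes tested and past it among genes of a mean level of at least 5 (limma adjusted p = 0.041). The IL-6 library was the lower of the pair at every time, by -0.27, -0.30 and -0.20 in log2 with an SD of 0.06, although the groups overlapped. The IL-6 estimate was -0.26 ± 0.16 (limma SE, 3 pairs; 95% interval -0.61 to 0.10; limma adjusted p = 0.698), its error being larger than the SD gives because limma shrinks the variance of each gene towards that of genes at the same level.

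Uptake and storage genes had the positive IL-6 estimates apart from NR1H3. PLIN2 (ENSG00000147872.10, chromosome 9 from 19108375 to 19149290, minus strand) had log2 values of -0.22, 0.37 and 0.40 at 6, 24 and 48 h with IL-6, against -0.37, 0.21 and -0.40 in the controls. The IL-6 library was the higher of the pair at every time, by 0.16, 0.15 and 0.80, and the groups overlapped. Over the 3 pairs the estimate was 0.37 ± 0.14 (limma SE; 95% interval 0.06 to 0.68; limma adjusted p = 0.45), which does not pass over all genes. Without the 48 h pair the estimate was 0.15 ± 0.10. CD36 (ENSG00000135218.19, chromosome 7 from 80369575 to 80679277, plus strand) had levels of 31.1, 33.7 and 35.5 with IL-6, against 37.9, 29.9 and 25.2 in the controls. Its control libraries were lower at later times and its IL-6 libraries higher, so that the differences in log2 value were -0.28, 0.17 and 0.50. The IL-6 estimate was 0.13 ± 0.16 (95% interval -0.23 to 0.49; limma adjusted p = 0.88).

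Taking the 10 genes against the background of 13522 genes tested, none passed for IL-6, where 0.251% of all tested genes did, 33 higher (0.244%) and 1 lower (0.0074%). At an unadjusted p under 0.05 there was 1 of the 10, PLIN2, against 9.01% of all tested genes. Estimates were positive for 3 and negative for 7, with a median of -0.14, against -0.03 over all tested genes, of which 44.0% were positive. The 95% interval of the estimate lay within 2-fold in either direction for 9 of the 10 genes, all but ABCG1, as it did for 76.7% of tested genes. A fold change of 2 or more over the 3 pairs was thus outside the interval for those 9, while smaller changes were inside it for some of them. No member had IL-6 libraries all above or all below the control libraries, against 9.21% of tested genes. The IL-6 ratio had the same sign at each time for MYLIP and PLIN2, against 30.7% of tested genes.

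**Figure D3:**
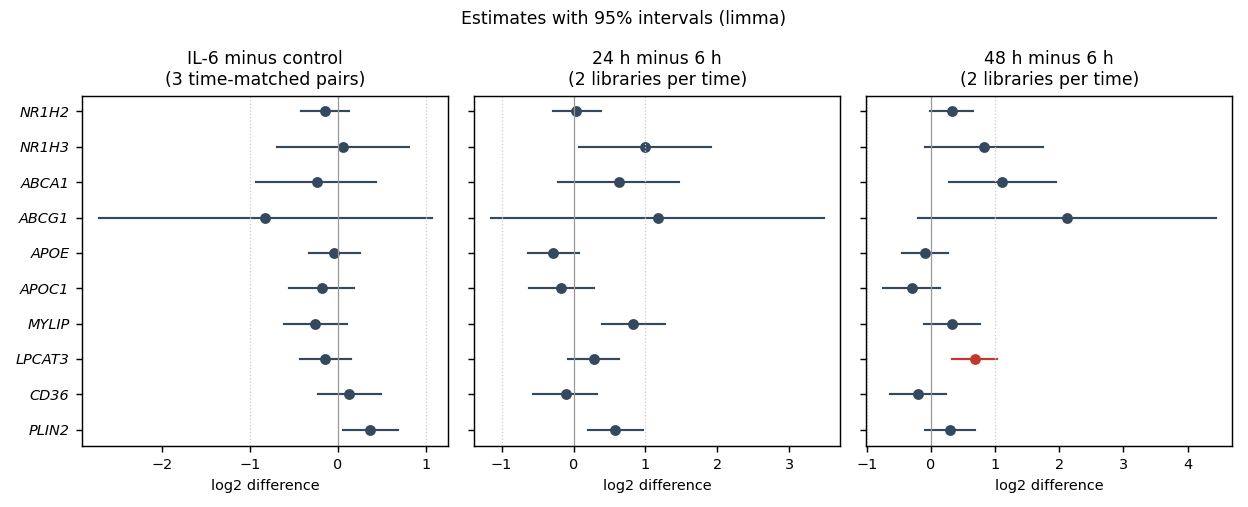
Log2 difference with its 95% interval (limma) for each of the 10 genes, for IL-6 minus control over 3 time-matched pairs, 24 h minus 6 h and 48 h minus 6 h with 2 libraries per time, with dotted lines at 2-fold. LPCAT3 at 48 h, at 0.68, is drawn in red as the estimate past an adjusted p of 0.05, and the IL-6 interval of ABCG1 reaches from -2.72 to 1.07.

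Culture time gave estimates larger in size than IL-6 did for most of these genes. The time estimates rest on 2 libraries per time and had larger errors, with a limma SE of 0.96 against 0.79 for ABCG1. Each time estimate averages the IL-6 and control cultures, so a course seen in only 1 of them enters it. For ABCG1 the 48 h minus 6 h estimate of 2.12 averages 3.86 with IL-6 and 0.39 in the controls. The IL-6 estimate in turn averages ratios of opposite sign for NR1H3 and ABCG1, which partly offset each other. How many of all tested genes had larger time estimates was not counted. At 24 h against 6 h none passed, against 1.92% of tested genes, and 3 of the 10 had an unadjusted p under 0.05 (MYLIP, PLIN2 and NR1H3), against 17.5%. MYLIP and PLIN2 were higher at 24 h to a like degree in both cultures. NR1H3 was 3.8-fold higher with IL-6 and 1.04-fold in the controls, so its estimate rests mostly on the IL-6 libraries. At 48 h against 6 h LPCAT3 passed, 1 of 10 against 3.9% of tested genes, and 2 had an unadjusted p under 0.05 (LPCAT3 and ABCA1), against 21.5%. The median estimate of the 10 was 0.43 at 24 h and 0.33 at 48 h, against 0.11 and 0.07 over all tested genes. At each time 7 were positive, or 6 at 24 h with equal library medians, where NR1H2 turned negative, against 61.9% of tested genes at 24 h and 57.0% at 48 h. Both contrasts use the same 6 h libraries. The values of PLIN2 were 1.5-fold higher at 24 h than at 6 h in both cultures, with an estimate of 0.58 ± 0.17 (limma adjusted p = 0.117), and at 48 h the IL-6 library stayed at 1.53-fold while the control was at 0.982-fold. ABCA1 and LPCAT3 were in the order 6 h, 24 h, 48 h from low to high in both cultures, as 7.42% of tested genes were. The IL-6 library of 6 h was the lowest of the 6 for 5 of the 10 genes, against 23.8% of tested genes, and that of 48 h the highest for 5, against 17.2%.

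Whether IL-6 acted differently at 6 h than later was tested as the difference between the 6 h effect and the mean of the 24 and 48 h effects. No member passed, against 0.222% of tested genes, and 1 had an unadjusted p under 0.05, against 3.98%. That gene was NR1H3, whose difference was -1.48 ± 0.47 in log2 (limma SE; 95% interval -2.46 to -0.50; limma adjusted p = 0.626). Its 3.8-fold step between 6 and 24 h in the IL-6 cultures compares with 1.04-fold in the controls. Where the mean was 10 or more, 2.95% of genes were 2-fold or more apart between these IL-6 libraries. That class has no upper limit and takes in genes far above NR1H3, whose own mean level was 11.4. The share was 9.64% from a level of 1 upwards and 22.3% from 1 up to 5. A class close to the level of NR1H3 was not counted. For ABCG1 the difference was -1.43 ± 2.11 and for APOC1 0.67 ± 0.32, both with a limma adjusted p of 1.

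The other genes of sterol and lipid handling were counted in 8 lists, of which 71 genes could be tested. For IL-6 none of the 71 passed, against 0.251% of all tested genes, and 8 had an unadjusted p under 0.05, where 9.01% of all tested genes did, with a median estimate of -0.02, or 0.01 with equal library medians (lowest limma adjusted p = 0.195). Nearest to the threshold was ACSL1, which activates long-chain fatty acids, at 0.66 ± 0.15, with ratios of 0.41, 0.74 and 0.83. The lysosomal cholesterol exporter gene NPC1 was at 0.55 ± 0.18 (limma adjusted p = 0.396), with a higher IL-6 library at each time. Among 12 other LXR targets, SMPDL3A, a phosphodiesterase gene, was at 0.34 ± 0.22 and the phospholipid transfer protein gene PLTP at -0.30 ± 0.12.

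Among 10 LXR partners and cofactors the largest IL-6 estimates were NCOA2, a coactivator gene, at -0.40 ± 0.31, PPARD at 0.34 ± 0.19 and the retinoid X receptor gene RXRB at -0.29 ± 0.17. RXRA, of the same family as RXRB, was at -0.08 ± 0.19. The oxysterol enzyme genes CYP46A1, CYP7B1 and CYP27A1 were at 0.57 ± 0.46, -0.09 ± 0.43 and 0.03 ± 0.24, and CH25H had no value in any library. Cholesterol storage and release genes included ABCA7 at -0.47 ± 0.21 and the esterifying enzyme gene SOAT1 at -0.29 ± 0.14. In uptake, the fatty acid transporter gene SLC27A1 was at -0.67 ± 0.29 and the fatty acid binding protein genes FABP4 and FABP5 at 0.67 ± 0.39 and 0.26 ± 0.15. Lipid droplet genes included the triglyceride synthase gene DGAT2 at 0.27 ± 0.12 and HILPDA, an inhibitor of lipolysis, at 0.23 ± 0.12. The phospholipid enzymes MBOAT7, LPCAT1 and MBOAT2 were at 0.28 ± 0.15, -0.23 ± 0.20 and 0.14 ± 0.20. The sterol feedback genes SREBF2, INSIG1 and SCAP were at -0.23 ± 0.16, 0.19 ± 0.11 and -0.18 ± 0.14.

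More genes of these lists passed for time than for IL-6. The lists were written with earlier results of these data known, so the counts describe them and are not an independent test. At 24 h against 6 h 13 of the 71 rose and 0 fell, where 1.6% of all tested genes rose and 0.311% fell, and the median was 0.28. The sterol feedback genes, which sense and make cholesterol, had 4 of 7 past the threshold, or 1 of 4 on log2(level + 1), among them HMGCS1, a synthase of the cholesterol pathway, by 1.56 ± 0.21, INSIG1 by 1.32 ± 0.13 and SQLE by 0.95 ± 0.12. All 7 had a positive estimate, except that SCAP turned negative with equal library medians. Of the 12 other LXR targets 4 rose, the desaturase genes FADS2 (1.71 ± 0.19), SCD (1.46 ± 0.14) and FADS1 (0.85 ± 0.15) and the fatty acid synthase gene FASN (0.93 ± 0.17). These are also targets of the SREBP factors. Further genes that rose included PPARD (1.55 ± 0.23), the sterol carrier gene STARD4 (1.32 ± 0.17), NPC1 (1.22 ± 0.23) and the lipid droplet gene PNPLA3 (0.89 ± 0.18). The NK-cell marker NKG7 also rose at 24 h, by 0.91 ± 0.18 (limma adjusted p = 0.0363), and its part in these results was not tested.

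At 48 h against 6 h 11 of the 71 rose and 1 fell, where 2.49% of all tested genes rose and 1.41% fell, and the median was 0.29. Those that rose included PPARD (1.56 ± 0.23), the sterol 27-hydroxylase gene CYP27A1 (1.52 ± 0.30), the lipolysis inhibitor gene G0S2 (1.25 ± 0.14), FADS2 (1.22 ± 0.19) and STARD4 (1.0 ± 0.17). The SREBP genes SREBF2 and SREBF1 rose by 0.90 ± 0.20 and 0.82 ± 0.19, SCD by 0.83 ± 0.14, INSIG1 by 0.62 ± 0.13 and the receptor gene VLDLR by 0.87 ± 0.15. FABP5 fell by 0.88 ± 0.18.

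**Figure D4:**
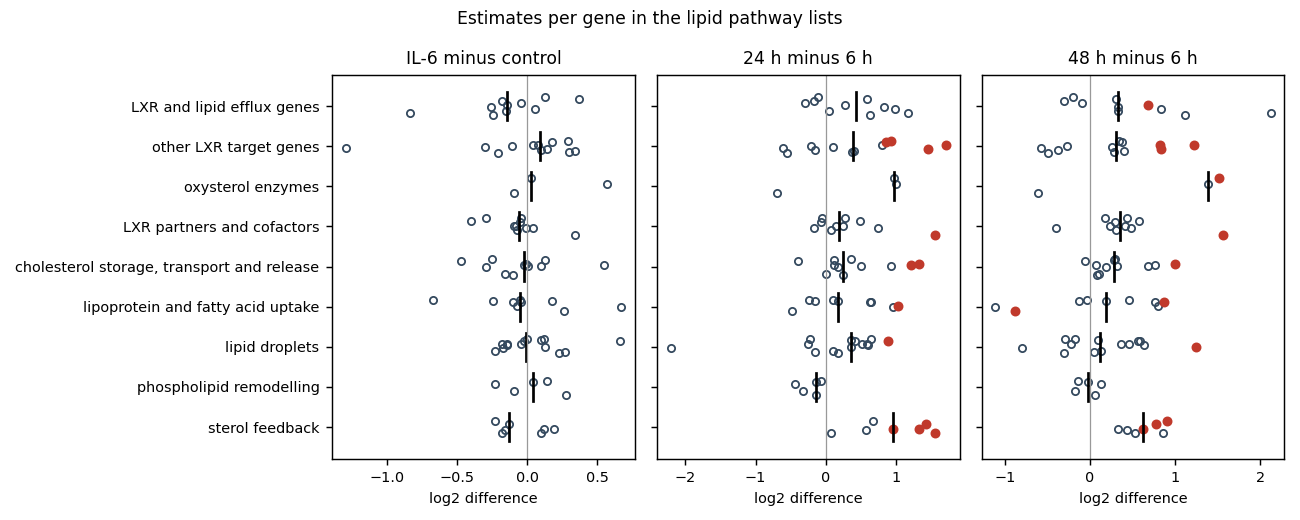
Log2 difference of each tested gene (circles) in the 10 LXR and lipid efflux genes and in the 8 lipid lists, with the list median as a bar and genes past an adjusted p of 0.05 filled red, for IL-6 minus control, 24 h minus 6 h and 48 h minus 6 h. No circle is red for IL-6, 13 of the 71 list genes are red at 24 h and 12 at 48 h, and the sterol feedback genes all lie to the right of 0 at both times, SCAP turning negative at 24 h with equal library medians.

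The genes whose pattern over the 6 libraries was most like that of ABCA1 were sought by Pearson correlation among 7573 tested genes of higher level outside the 10. They were TK2 (r = 0.998), RUNX2 (0.996), MAF1 (0.994), TMEM80 (0.993) and AGT (0.992). A correlation of at least 0.9 was found for 408 of the candidates, and over 6 libraries that share their times and scaling it is a description. Of these 5 genes TK2 had values of the same size as ABCA1, with -0.67, -0.22 and 0.50 at 6, 24 and 48 h with IL-6, against -0.42, 0.36 and 0.45 in the controls.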

How the data were processed

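RNA-seq was run on 6 THP-1 libraries. RNA was amplified by SMART-Seq for low input and turned into libraries by Nextera XT, per the labels' protocols, and neither marks strand. The build named is GRCh38 (hg38), per the submitters' processing notes. Aligner, counting program, annotation release and normalization: not given in the sources used here. The deposited values are log2 values, 1 per gene and library, and the mean of each gene is 0 to within 1.8e-07. Depth is unknown.

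Once each library's own offset was taken off, the 6 values of most genes were in whole-number ratios, within a relative tolerance of 2e-06 up to 5000 steps and 6e-07 above. This gave a level in steps of 0.001 for 90.4% of the 17388 genes with 6 values, counting 95 matched with a library at the lowest listed level. Of 500 decoys 35 matched by accident. Genes with no recovered level were treated as high. The 1st percentile of the lowest library was 0.124 for genes of 200 to 400 bases, 0.0154 for 800 to 1600 and 0.0149 for 3200 to 6400, so it fell with length among shorter genes, and levels were taken as per length.

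limma 3.58.1 in R 4.3.3, tested on simulated data, was fitted to the log2 values of the 13522 genes at mean level 1 or above, with time point and agent as terms, robust shrinkage and a trend on level (8.01 prior and 2 residual degrees of freedom). A further model held agent at 6 h (1 residual degree of freedom). P-values were adjusted by Benjamini-Hochberg over all genes tested, with a threshold of 0.05. Ratios of single libraries have no test and were counted from 2-fold at a mean level of at least 10, at least 1, and from 1 up to 5. Exon overlaps came from GENCODE 29 and promoters from RefSeq. Named genes are the 10, the list genes past the threshold, the 3 largest IL-6 estimates per list and the 5 genes most like ABCA1; RXRA, CH25H and the genes overlapping the 10 were added after their values were seen. Some genes that the rule names are not reported here. The members and lists were chosen with earlier results of these data known.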

Additional observations from a re-analysis of the deposited data

Results flagged for a closer look

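ENSG00000280087, the transcript that shares exon bases with APOC1 and APOE, was flagged because its response to IL-6 was not alike early and late, the effect at 6 h less the mean of the later effects being 6.51 ± 0.35 in log2 (limma SE, 1 residual degree of freedom; limma adjusted p = 7.12e-11). The early effect rests on 1 pair of libraries, and no gene passed this contrast without the variance trend. Its IL-6 minus control differences were 3.29, -3.23 and -3.20 at 6, 24 and 48 h, each from 1 library against 1, and its estimate over the 3 pairs was -1.05 ± 2.08 (limma adjusted p = 0.933). The same difference did not pass for APOC1 or APOE (limma adjusted p = 1 for each). For APOC1 it was 0.67 ± 0.32 (95% interval -0.0 to 1.34), of the same sign as that of ENSG00000280087. For APOE it was -0.12 ± 0.34 (95% interval -0.83 to 0.59).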

How the results depend on the processing

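For IL-6, 34 genes passed, against 0 without the variance trend (1084 at an unadjusted p under 0.05), 13 with non-robust shrinkage, 14 without the level filter, 4 with no replicate block, the time points being the pairs, and 17 to 116 with a pair left out (17 without the 24 h pair, 116 without the 6 h pair). None of the 10 genes passed in any of these fits. With a pair left out, the IL-6 estimate ran from -0.38 (without 24 h) to 0.56 for NR1H3, from -0.41 to 0.05 (without 24 h) for APOC1, from -0.06 (without 48 h) to 0.33 for CD36 and from -0.11 to 0.0 (without 6 h) for APOE, each with a change of sign. ABCG1 ranged from -2.09 to -0.04, and PLIN2 was at 0.15 without the 48 h pair. Of the 34 calls 33 were higher and 1 lower, against 24 and 7 on log2(level + 1), 35 and 7 at a level of at least 5, and 81 and 35 without the 6 h pair.

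For 24 h, 259 genes passed, against 0 without the trend (1919 at an unadjusted p under 0.05), 145 with non-robust shrinkage, 145 without the filter and 389 at a level of at least 5. In that last fit 1 of the 10, MYLIP, passed. That fit left out ABCA1 and ABCG1, whose mean levels of 3.13 and 1.87 are below 5. With equal library medians the median of all tested genes was 0.01, against 0.11, 66.5% of calls were higher, against 83.8%, and NR1H2 turned to -0.06. For 48 h, 527 passed, against 0 without the trend (2253 at an unadjusted p under 0.05), 244 and 268. The higher share was 63.9%, against 49.6% with equal medians and 75.3% on log2(level + 1). LPCAT3, 1 of the 10, was lost (0 of 10) without the trend or filter, with non-robust shrinkage and with equal medians. For early against late effects 30 passed, against 0 without the trend (704 at an unadjusted p under 0.05) and 19 with equal medians. Ratios of 2-fold or more between IL-6 and control were 1.05%, 1.75% and 1.65% of genes at 6, 24 and 48 h at a level of at least 10, against 6.08%, 7.33% and 7.07% at a level of at least 1 and 16.8%, 19.3% and 18.9% from 1 up to 5, a class chosen after seeing the data. The cause of these shifts was not tested. Of the 10 genes' values under the alternatives, 231 kept sign and call, 4 lost the call, 1 gained it and 5 changed sign.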
